A study of Mus musculus with 2 samples.

Results

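The G2/M set was the 298 germ cells with the highest expression of 8 mitotic genes, out of 1490 germ cells and 1676 complete cells in 2 single-cell RNA libraries. Germ cells were cells with at least 1000 UMIs (unique molecular identifiers, each counting 1 captured mRNA molecule) and more UMIs of the germ cell genes Ddx4, Dazl, Mael, Dnd1 and Zbtb16 than of the fibroblast genes Col1a1, Col1a2, Col3a1, Fn1 and Sparc. They were ranked by the UMIs of Top2a, Mki67, Ccnb1, Ccnb2, Cenpf, Ube2c, Tpx2 and Nusap1 per 10000 UMIs of the cell, and the top 20% over both libraries formed the set. It held 150 of 730 germ cells of the control library and 148 of 760 of the Chd4 siRNA library. The other 1192 germ cells, 580 and 612, were the comparison.

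The cells were undifferentiated spermatogonia of C57BL/6 mice, isolated from adult testes on magnetic beads by the surface protein THY1 and kept as primary cultures on mitomycin-treated SNL76/7 fibroblasts, in serum-free medium with the growth factors GDNF and bFGF. Off the feeder layer, they received 75 pmol of siRNA with 2 µL Lipofectamine on plastic for 24 h, with a non-targeted control siRNA in one group and in the other an siRNA directed at Chd4, which encodes the ATPase in the nucleosome remodelling and deacetylase complex NuRD. Equal numbers of cells from 3 biological replicates were pooled in each group before capture, so each group is 1 library of a mixed pool. No test between groups was possible, the intervals given below (95%) cover counting error only, and a knockdown of 24 h in culture-adapted cells sets what these data can show. The libraries still held 79 and 92 feeder fibroblasts.

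A dividing cell copies its DNA in S phase, passes G2 and separates its chromosomes in mitosis. Cyclin A2 and the B cyclins activate the kinase CDK1 at the end of this course, and the anaphase-promoting complex then marks cyclins and securin for destruction. Many genes of G2 and mitosis share a promoter element, the cell cycle genes homology region (CHR). The DREAM complex binds it to keep these genes off in resting cells, and MYBL2 and FOXM1 act through it to turn them on late in the cycle, often beside a CCAAT box bound by NF-Y. Spermatogonia divide to renew the stem cell pool and to supply the cells that differentiate.

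The CHR letters are shown for genes that ranked the cells (Top2a to Ube2c) and for genes among those with the largest difference between the set and the other germ cells (Cdk1 to Hmgb2). Each line has 30 bases of GRCm38.p6 from the RefSeq promoter table, written 5′ to 3′ on the gene's strand, with TTTGAA, or TTCAAA where the element lies on the opposite strand, in capitals.
Top2a (chr11:99024195-99024224, minus strand): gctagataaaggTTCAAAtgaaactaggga
Mki67 (chr7:135716460-135716489, minus strand): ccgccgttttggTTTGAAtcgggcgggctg
Ccnb2 (chr9:70421533-70421562, minus strand): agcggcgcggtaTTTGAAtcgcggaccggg
Cenpf (chr1:189688067-189688096, minus strand): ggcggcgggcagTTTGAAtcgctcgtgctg
Ube2c (chr2:164769888-164769917, plus strand): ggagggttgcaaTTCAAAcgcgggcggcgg
Cdk1 (chr10:69352910-69352939, minus strand): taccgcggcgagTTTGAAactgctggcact
Aspm (chr1:139454767-139454796, plus strand): ggaggcgcgataTTTGAAccgagcaaaagc
Prc1 (chr7:80294434-80294463, plus strand): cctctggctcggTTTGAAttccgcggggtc
Plk1 (chr7:122159453-122159482, plus strand): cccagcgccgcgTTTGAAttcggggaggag
Hmmr (chr11:40733412-40733441, minus strand): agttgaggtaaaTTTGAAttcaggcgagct
Hmgb2 (chr8:57511801-57511830, plus strand): ggactctccgggTTTGAAtaatcctccaca
In Ccnb2, Cenpf, Aspm, Plk1 and Hmmr the centre of the element lay 7, 5, 9, 33 and 11 bases after the annotated start of the gene. In Top2a, Ube2c, Cdk1 and Hmgb2 it lay 20, 26, 12 and 27 bases before it. In Prc1 it lay 2 or 27 bases before, depending on the annotated start used. Others were farther away, 95 bases before the start in Mki67, and 100 and 108 in Kif2c and Cdkn3, which are not printed.

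The 150 bases before the Top2a start (chr11:99024190-99024339, minus strand) are printed whole because they hold both elements several times. The capitals mark 3 CHR elements, in the forms TTCGAA and TTCAAA, and 4 CCAAT boxes, mostly read on the opposite strand as ATTGG.
Top2a upstream: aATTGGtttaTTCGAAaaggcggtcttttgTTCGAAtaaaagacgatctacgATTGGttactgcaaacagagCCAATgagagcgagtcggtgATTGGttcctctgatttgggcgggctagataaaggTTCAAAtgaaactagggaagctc

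Promoter windows from 250 bases before to 50 bases after the start were searched on both strands for TTTGAA or TTCGAA (CHR) and for CCAAT, where a match of one may share a letter with a match of the other. Of 45 G2/M genes that the ranking did not use, 38 had at least 1 window. A CHR lay in 31 of their 43 windows (72.1%), against 6316 of 32851 windows of all promoters in the table (19.2%). Genes of spindle motors and cytokinesis, a list that shares members with the 45, had it in 26 of 30 windows (86.7%). Genes of S phase and DNA replication had it in 5 of 39 (12.8%). Among genes higher in the set in both libraries, described below, it was in 98 of 317 windows (30.9%). For those outside the cell cycle lists the share was 21.2%. Within 50 bases of the start the element stood in 25 of the 43 windows (58.1%) and in 5.51% of all promoters. CCAAT was in 74.4% of the G2/M windows and 37.4% of all promoters. Of the 8 ranking genes 7 had a window, and 5 of these held a CHR. The letters were not in the windows of Ccnb1 and Nusap1. Of the genes with the largest difference, Tuba1b and Tuba1c had windows without them. A match of 6 letters is a description of the sequence and was not tested for binding.

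**Figure D1:**
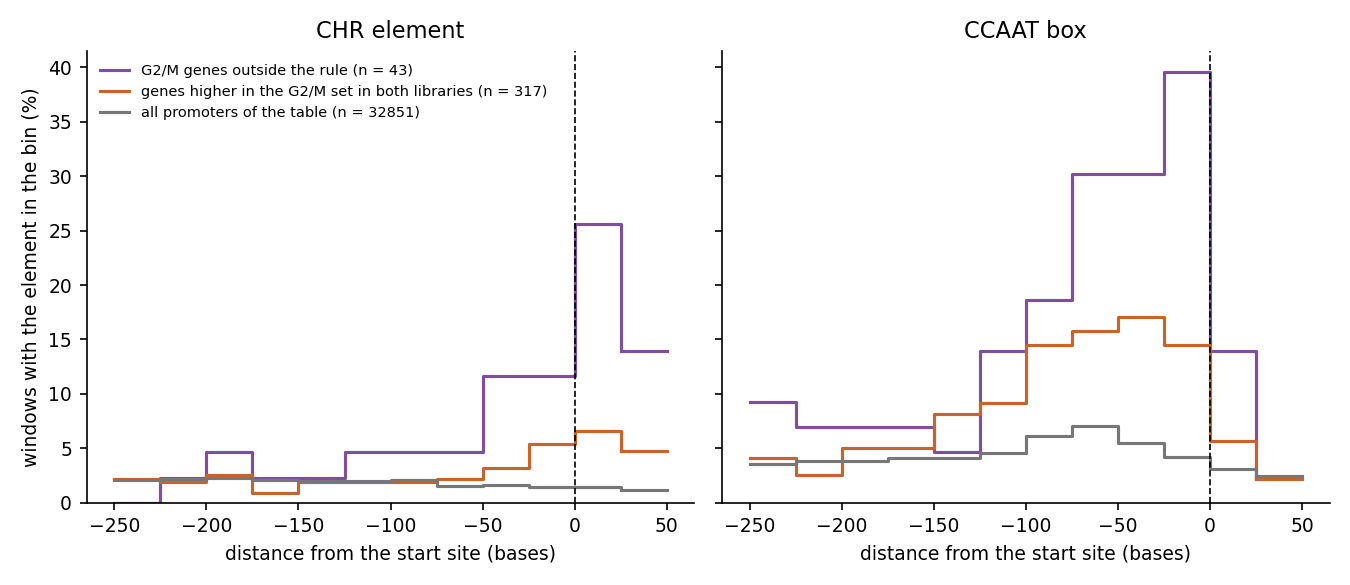
Share of promoter windows (%) whose CHR element (left) or CCAAT box (right) is centred in each bin of 25 bases, by distance from the annotated start (bases; the dashed line is the start). Lines are the 43 windows of G2/M genes outside the ranking, the 317 windows of genes higher in the G2/M set in both libraries and all 32851 windows; in the first 25 bases after the start, 25.6% of the G2/M windows and 1.44% of all windows have a CHR.

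In the G2/M set the ranking genes were seen together in single cells. All 8 had a UMI in 71 of the 150 control cells (47.3%) and 69 of the 148 Chd4 siRNA cells (46.6%), and at least 5 had one in 95.3% and 95.9%. Among the other germ cells 2 in each library had all 8, and 62 and 76 had none. The median score was 19.9 UMIs per 10000 in the set and 2.28 in the other germ cells of the control library, and 19.2 and 2.23 in the Chd4 siRNA library. The last cell inside the set had 11.19 per 10000 (14 of 12506 UMIs) and the first outside 11.16 (17 of 15232). These values chose the cells and are given as a description.

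Top2a, the topoisomerase that untangles sister chromatids, stood at 491 CPM (the gene's part of all UMIs summed over the cells, on the usual CPM scale) in the set and 47.2 in the other germ cells of the control library, and at 525 and 47.1 in the Chd4 siRNA library. Cenpf, a kinetochore protein, had 732 and 123 CPM in the control and 718 and 116 CPM in the Chd4 siRNA library. Mki67, which coats mitotic chromosomes, had 106 and 8.63 CPM, then 105 and 7.44 CPM. Each of these genes was at almost the same level in both libraries. The same cut on the summed share of the 8 genes chose both sets, so their levels in the sets, here and below, are a description. Ccnb1 and Ccnb2, the B cyclins, had 231 and 153 CPM in the control set and 225 and 146 CPM in the Chd4 siRNA set. Tpx2, which activates Aurora A at the spindle, had 121 and 112 CPM, and Nusap1, which bundles spindle microtubules, 129 and 117 CPM. In the other germ cells Nusap1 had 10.1 CPM in the control and 15.6 CPM in the Chd4 siRNA library, a log2 ratio of 0.63 (0.24 to 1.03), the widest difference between libraries among the 8. Ube2c, the ubiquitin-conjugating enzyme of the anaphase-promoting complex, had 351 CPM in the control set and 287 in the Chd4 siRNA set, a log2 ratio of -0.29 (-0.42 to -0.15).

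The share of germ cells in the set was 20.5% (exact binomial interval 17.7 to 23.7) of control germ cells and 19.5% (16.7 to 22.5) of Chd4 siRNA germ cells, a difference of -1.07 percentage points. The cut fixes the sum of both counts, so the shares are not independent and no interval is given for their difference. The share itself is not a count of cycling cells. Feeder cells carried these genes too: all 8 genes were seen in 10 of 79 control feeders (12.7%) and 7 of 92 Chd4 siRNA feeders (7.61%). These shares are not at equal depth, as feeders had medians of 38655 and 39671.5 UMIs. Their median score, 0.85 and 0.72 per 10000, was below that of the other germ cells.

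The label was checked on the 45 G2/M genes outside the ranking, measured in the same cells. Ranked by those genes alone, 258 of the 298 cells (86.6%, 82.2 to 90.2) were again in the top 20% of germ cells, and 40 of the other 1192 (3.36%) were. Summed over the list, the level was 7615 CPM in the set and 2777 CPM in the other germ cells of the control library, a log2 ratio of 1.46 (1.43 to 1.48). It was 7567 and 2782 CPM in the Chd4 siRNA library, a log2 ratio of 1.44 (1.42 to 1.47). Genes of S phase were also high in these cells, as described below, so the set did not hold mitotic transcripts alone.

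**Figure D2:**
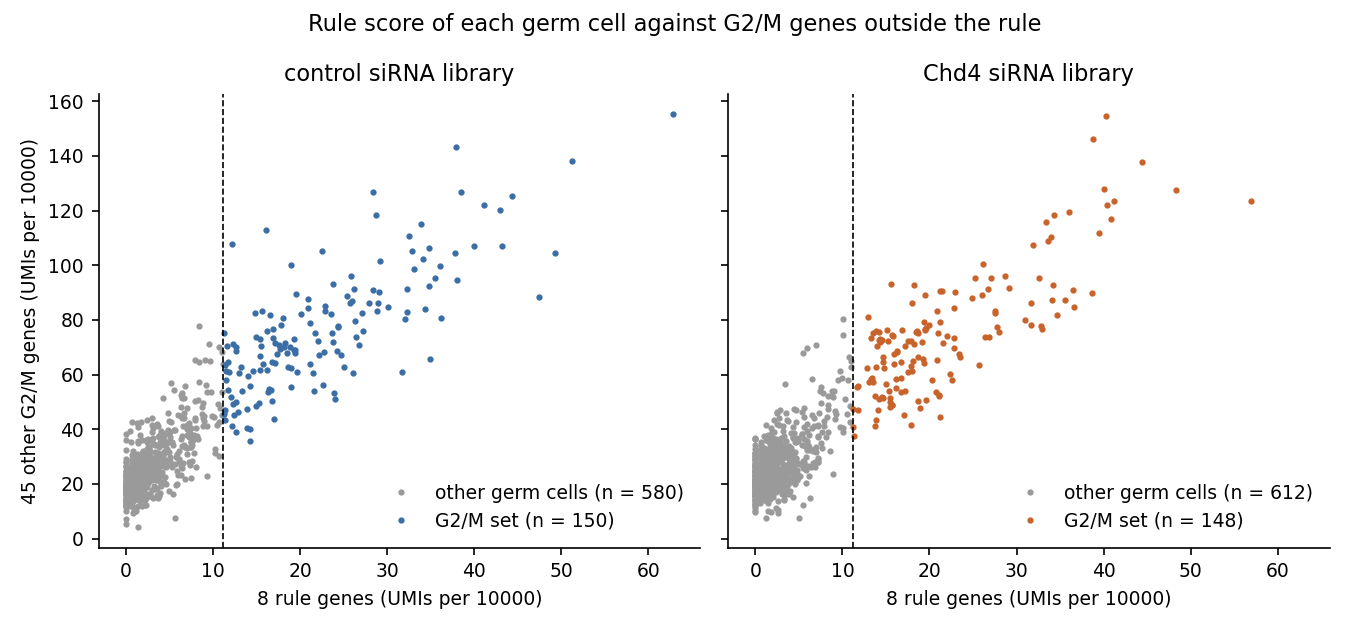
Each point is 1 germ cell: the UMIs of the 8 ranking genes (horizontal) and of 45 other G2/M genes (vertical), both per 10000 UMIs, in the control siRNA library (left) and the Chd4 siRNA library (right). Coloured points right of the dashed line are the G2/M set (150 and 148 cells), grey points the other germ cells (580 and 612); the second list is high in most cells of the set in both libraries.

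Cells of the set had more UMIs than the other germ cells. The median was 20001.5 UMIs against 14552.5 in the control library (1.37 times) and 19116 against 14846.5 in the Chd4 siRNA library (1.29 times), with 4576 against 3931 and 4611.5 against 4004 genes detected. Summed over cells the set had 2923264 and 2948190 UMIs. Markers of the feeders were low in the set: Col1a1, Col1a2, Col3a1, Fn1 and Sparc summed to 88.3 and 79.0 CPM, against 57.8 and 63.1 CPM in the other germ cells and 2101 and 2318 CPM in the feeders. The 5 germ cell markers summed to 1713 and 1910 CPM in the set and to 55.8 and 56.7 CPM in the feeders. Their part in the results below was not tested. Scrublet, run with an expected rate of 1%, marked 1 cell of the set in the control and 0 in the Chd4 siRNA library, and no cell was removed. The libraries shared 1 cell barcode among those held, a germ cell outside the set in each.

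Across all genes, 8241 had at least 200 UMIs in the germ cells, apart from the 8 ranking genes. In both libraries 361 of them (4.38%) were at least 1.5-fold higher in the set and 282 (3.42%) at least 1.5-fold lower, in CPM. With totals that leave out ribosomal protein genes these counts were 281 and 383, and with TMM factors 318 and 319, so the balance of higher to lower genes depends on the scaling. In the control library alone 589 (7.15%) were higher and 567 (6.88%) lower, and in the Chd4 siRNA library alone 599 (7.27%) and 591 (7.17%). The 361 were 61.3% of the first and 60.3% of the second list of higher genes. Only 2 genes passed it in opposite directions. Since the cells were chosen by genes of the same contrast, these counts describe the set and are not a test.

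Genes of cyclin A2 and the mitotic kinases were among the highest. Ccna2 had 191 CPM in the set and 27.7 CPM in the other germ cells of the control library (log2 ratio 2.78, 2.56 to 3.01), and 197 and 31.3 CPM in the Chd4 siRNA library (2.66, 2.45 to 2.86). Cdk1, the kinase that the B cyclins switch on, had 84.2 and 14.0 CPM, then 77.3 and 12.1 CPM, log2 ratios of 2.58 and 2.68. Plk1, which drives mitotic entry and spindle assembly, had 33.5 and 4.49 CPM, then 30.9 and 4.42 CPM, log2 ratios of 2.90 and 2.80. For Ccna2, Cdk1 and Plk1 both set values lay far above both values of the other germ cells. Of 20 genes of mitotic kinases and CDK1 partners, 18 were past 1.5-fold higher in both libraries and 0 lower, where 5.34% of all genes with at least 20 UMIs were higher and 7.27% lower. These shares of all genes also stand beside the counts of the lists that follow for the same contrast. The kinase list's median log2 ratio was 1.59 and 1.60, beside 0.02 and 0.03 for all genes. The 2 others were Cks1b (0.59 and 0.56) and Pkmyt1 (0.10 and 1.05), the latter a kinase that holds CDK1 inactive.

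Spindle and cytokinesis genes had the highest list median. Aspm, a spindle pole protein, had 46.9 CPM in the set and 4.72 CPM in the other germ cells of the control library (log2 ratio 3.31, 2.80 to 3.85), and 34.9 and 4.10 CPM in the Chd4 siRNA library (3.09, 2.54 to 3.67). Prc1, which bundles the central spindle, had log2 ratios of 2.93 and 2.66, the hyaluronan receptor and spindle protein Hmmr 2.40 and 2.44, and the microtubule depolymerase Kif2c 2.53 and 2.53. Of 29 genes, 26 were past 1.5-fold higher in both libraries and 0 lower, with medians of 1.94 and 1.74. The tubulin genes Tuba1b (2.24 and 2.22) and Tuba1c (2.75 and 2.32) were high as well, but near-identical tubulin copies could share reads in the authors' counting.

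At kinetochores and centromeres 22 of 36 genes were past 1.5-fold higher in both libraries and 0 lower, with medians of 0.95 and 1.09. Cenpa, the centromeric histone H3, had 533 and 147 CPM in the control library and 501 and 125 CPM in the Chd4 siRNA library. Birc5, a subunit of the chromosomal passenger complex, had log2 ratios of 2.05 and 2.23, and the outer kinetochore motor Cenpe 1.88 and 1.82. Members of the constitutive centromere network were mixed. Cenpl (1.48 and 1.46), Cenpn, Cenpu, Cenpm, Cenpk and Cenpw were past 1.5-fold higher in both libraries. Cenph (0.47 and 0.45) and Cenpt (-0.22 and -0.11) were nearer to 0. Among 19 condensin and cohesin genes 10 were past the fold and all 10 were higher, among them the cohesin acetyltransferase Esco2 (2.20 and 2.42), separase Espl1 (2.16 and 2.01) and the condensin subunit Smc4 (1.62 and 1.62). The cohesin subunit gene Rad21 was also among the 10, whereas its partner Smc1a had 0.25 and 0.36 and the cohesin loader Nipbl 0.30 and 0.03.

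Of the genes of the anaphase-promoting complex and its regulators a minority was past the fold. The activator Cdc20 (1.88 and 1.48), the inhibitor Fbxo5 (2.29 and 2.53) and the E2 enzyme Ube2s (1.31 and 1.19) were past 1.5-fold higher, as were the subunit Anapc15 and the second activator Fzr1, 5 of 17 genes in all and 0 lower. The 2 subunits of its catalytic core were not past the fold, Anapc2 with 0.003 and 0.14 and Anapc11 with -0.22 and -0.07. Of 16 genes of the DREAM and MMB regulators, 6 were past 1.5-fold higher and 0 lower. Foxm1 had 30.4 and 7.25 CPM in the control library and 35.3 and 7.01 CPM in the Chd4 siRNA library, log2 ratios of 2.07 and 2.33, and Mybl2 1.35 and 1.48. Lin9, Nfyb and the repressors E2f8 and E2f7 completed the 6, the last 2 with 2.04 and 1.94 and with 1.45 and 1.11. The DREAM subunits Lin37 (0.13 and 0.21), Lin52 (0.01 and 0.13) and Lin54 (0.29 and 0.24) were near the median of all genes.

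Genes of S phase were higher in the set too. Of 50 genes 28 were past 1.5-fold higher in both libraries and 0 lower, and all 50 lay above the all-gene median in each. The median was 0.64 in the control and 0.86 in the Chd4 siRNA library. Rrm2, a subunit of ribonucleotide reductase, had log2 ratios of 1.65 and 1.90, the primase subunit Prim1 1.59 and 1.44, and Uhrf1, which carries DNA methylation through replication, 1.05 and 1.12. The replicative helicase subunits ranged from Mcm3 (0.94 and 1.24) to Mcm2 (0.21 and 0.62). Of 19 genes of the DNA damage checkpoint and repair 11 were past the fold, all higher, among them Brca1 (1.54 and 1.26) and Chek1 (1.12 and 1.11).

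Replication-dependent histone genes, which are expressed while DNA is copied, were high in the same cells. Of 39 measured genes of this class 33 were past 1.5-fold higher in both libraries and 0 lower, with medians of 1.45 and 1.65. They summed to 592 CPM in the set and 250 CPM in the other germ cells of the control library, and to 481 and 188 CPM in the Chd4 siRNA library. Most of their mRNA lacks the poly(A) tail that the capture oligos bind, and copies of these genes are alike in sequence, so single members are uncertain. Hmgb2, a chromatin protein with a poly(A) tail, had 1150 and 283 CPM in the control library (2.03, 1.95 to 2.1) and 1200 and 254 CPM in the Chd4 siRNA library (2.24, 2.16 to 2.31). The variant histone gene H2afz had log2 ratios of 0.81 and 1.05.

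Cyclin D2 went the other way. Ccnd2, the D cyclin that links growth factor signals to entry into the cycle and is known from differentiating spermatogonia, had 403 CPM in the set and 725 CPM in the other germ cells of the control library (log2 ratio -0.85, -0.94 to -0.76), and 407 and 707 CPM in the Chd4 siRNA library (-0.80, -0.89 to -0.71). Both set values were below both other values. Ccnd1 (0.15 and 0.16) and Ccnd3 (-0.03 and -0.26) were not past the fold. Of 19 G1 genes 7 were past it higher and 1 lower, beside 5.34% and 7.27% of all genes with at least 20 UMIs. The 7 included the inhibitors Cdkn1c (1.18 and 0.82) and Cdkn2c (1.78 and 2.73). Rbl1 (1.14 and 1.55), E2f3 (1.30 and 0.80) and E2f1 (0.73 and 0.89) were also among them. The list's median was 0.57 and 0.53 while its summed ratio was -0.04 and -0.02, with Ccnd2 as its most counted member.

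Besides Ccnd2, the genes lowest in the set with the narrowest intervals came from mixed classes. Dppa4, a chromatin protein of pluripotent and germ cells, had 29.8 and 64.5 CPM in the control library and 26.1 and 63.3 CPM in the Chd4 siRNA library. Slxl1, an X-linked germ cell gene, had 6.50 and 26.7 CPM, then 7.80 and 30.1 CPM. Dguok, the mitochondrial deoxyguanosine kinase, had 58.8 and 114 CPM, then 59.0 and 116 CPM. Cd68, which encodes a lysosomal membrane protein, was lower too (log2 ratios -1.61 and -2.20), from 16 and 12 UMIs in the sets. It was also the 1 of 4 measured macrophage markers with a UMI in the set, so that list summed to 5.47 CPM in the set and 16.7 CPM in the others of the control library, and to 4.07 and 18.8 CPM in the Chd4 siRNA library. Sertoli cell markers summed to 8.55 and 26.1 CPM, then 12.6 and 24.7 CPM, with 2 of 5 at 0 in each set. The part of these in the lower genes was not tested. Ifi27, Igbp1, Pax8, Rac3, Mydgf, Rab13, Cyp2u1, Cd93 and Ahi1 were also among the 15 lowest genes, with log2 ratios between -2.00 and -0.90. At the other end Cdca3, Cdkn3 and Fam83d completed the 15 highest, with values between 2.30 and 2.94.

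Among genes of spermatogonial identity a minority was past the fold. More of these were lower than higher, as also among all genes with at least 20 UMIs. Of 18 self-renewal and GDNF-responsive genes 1 (Eomes) was past 1.5-fold higher and 3 lower, beside 5.34% and 7.27% of all genes with at least 20 UMIs. The list's medians were -0.21 and -0.20 and its summed ratios -0.23 (-0.30 to -0.15) and -0.16 (-0.24 to -0.09). Lower were Bcl6b (51.3 and 89.3 CPM, then 50.9 and 90 CPM) and Egr2 (log2 ratios -0.82 and -0.89), both transcription factors that GDNF induces, and Shisa6, with 8 UMIs in the set. Etv5 had -0.34 and -0.30, Ret -0.21 and 0.04, and Id4 0.38 and 0.57. In the core list of undifferentiated spermatogonia 1 of 14 (Cdh1) was higher and 2 lower. Those lower were Sall4 (30.8 and 55.5 CPM, then 28.2 and 43.8 CPM) and Utf1 (-1.43 and -0.88). Of 18 progenitor and differentiation genes 1 (Sox3) was higher and 2 lower, the latter Ccnd2 and Neurog3, which had 2 and 4 UMIs in the set. That list had medians of 0.08 and 0.11, beside 0.02 and 0.03 for all genes. Its summed ratios, with Ccnd2 as a member, were -0.35 and -0.33.

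Shares of cells with a UMI were compared at equal depth. With every cell thinned to 9000 UMIs (141 and 140 cells of the set kept), Ccna2 was seen in 77.3% and 80.7% of the set and in 16.8% and 17.7% of the other germ cells, with 20% and 11.6% in the feeders. The unthinned shares were 93.3% and 93.9% against 24.3% and 26.1%. Sall4 was seen in 21.3% and 19.3% of the set and in 37.4% and 31.2% of the other germ cells. It was seen in 1.33% of the control feeders and 0 of 86 Chd4 siRNA feeders. For this 0 a limit of 3 cells (3.49%) was set by rule, which is not an exact binomial interval. Unthinned, Sall4 was in 40.7% and 35.1% of the set and 50.5% and 44.0% of the others. Among cytosolic ribosomal protein genes 78 and 79 of 82 lay below the all-gene median in the set, with medians of -0.15 and -0.18, though none was past 1.5-fold in both libraries. They summed to a median of 31.0% and 30% of a cell's UMIs in the set and 35.0% and 33.8% in the others, a gap that enters every CPM value.

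**Figure D3:**
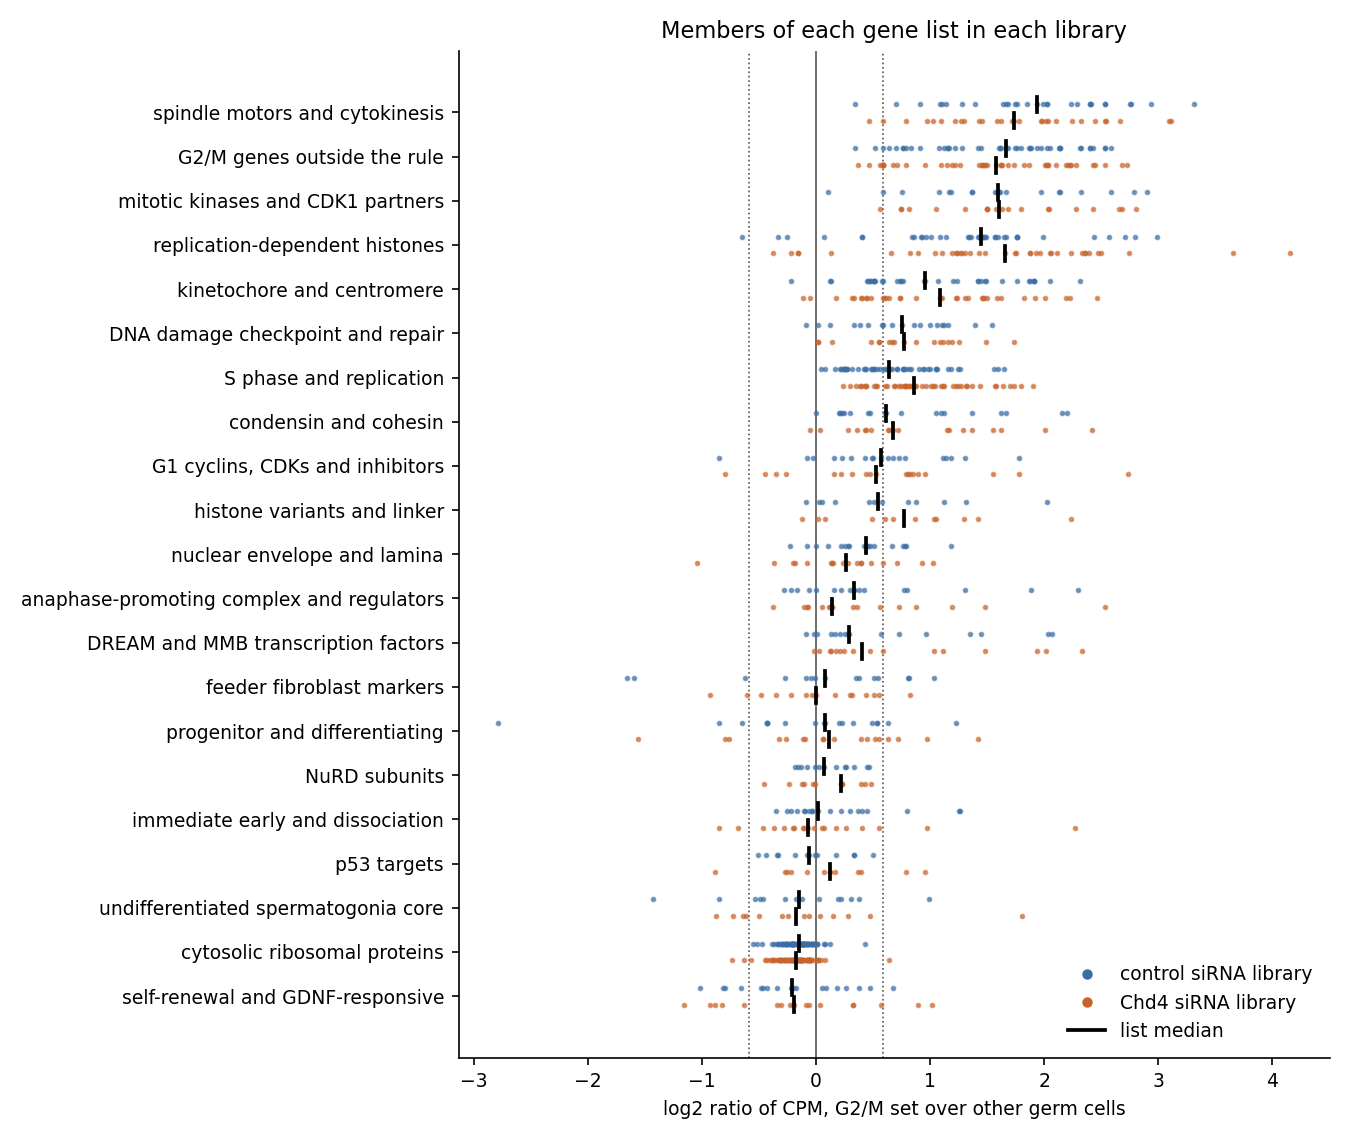
Log2 ratio of CPM, G2/M set over other germ cells, for each measured member (dots) of 21 gene lists in the control siRNA library (blue) and the Chd4 siRNA library (orange). Black bars are list medians, dotted lines 1.5-fold, and some genes are in several lists; spindle genes have medians of 1.94 and 1.74 while ribosomal protein genes sit close together below 0, at -0.15 and -0.18.

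The genes were followed along the score. Germ cells of both libraries were ordered by score and divided into 5 bins of equal size, bin 5 being the G2/M set. Ccna2 stood at 3.3, 15.8, 17.1, 69.0 and 190.9 CPM from bin 1 to bin 5 of the control library. Plk1 stood at 3.3, 1.9, 3.3, 8.8 and 33.5 CPM and Aurka at 11, 20.1, 13.3, 15.5 and 65.7 CPM. All of these were highest in bin 5. Ccna2, Plk1 and Aurka were also higher in bin 4 than in bin 3, Plk1 on 21 and 7 UMIs and Aurka with 15.5 against 13.3 CPM. Whether they differ in this was not tested. S phase genes summed to 2430, 2601, 3112, 4656 and 5027 CPM in the control library and to 2502, 2762, 3191, 4401 and 5769 CPM in the Chd4 siRNA library, so most of their climb lay below the set. The Chd4 siRNA library was thus higher in bins 2 and 5 and lower in bin 4, the bin next to the set, and in bins 1 and 3 the counting intervals overlapped. Ccnd2 was highest in bins 3 and 4 of the control library, at 798.7 and 794.4 CPM, before the 402.6 CPM of the set.

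**Figure D4:**
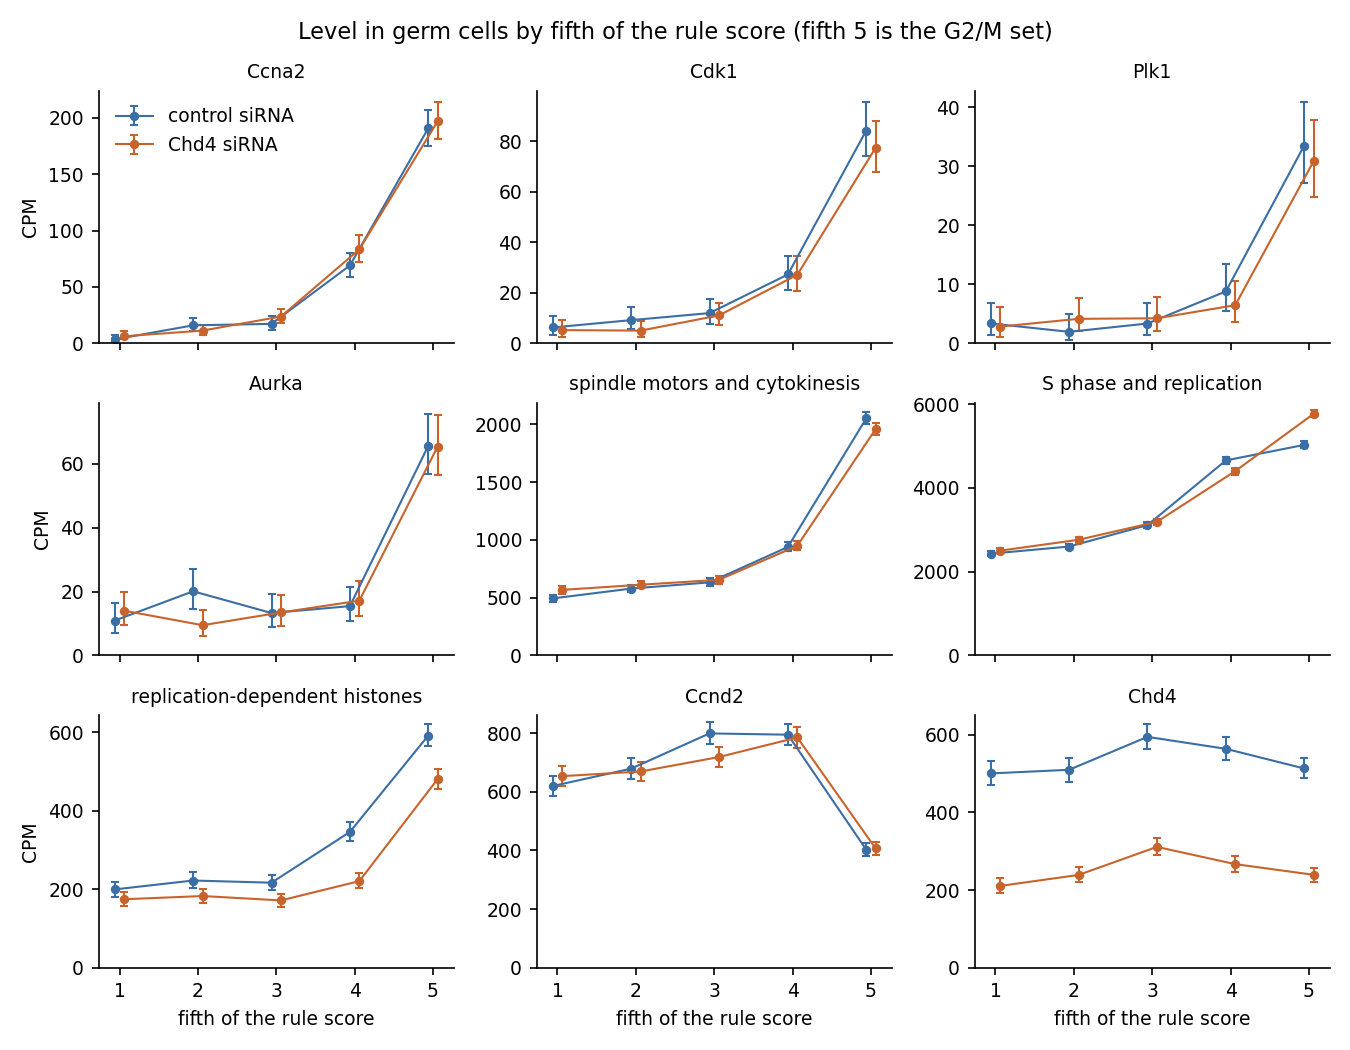
Level (CPM) of 6 genes and 3 summed lists in germ cells ordered by the ranking score, from the lowest bin (1) to the G2/M set (5), with 140 to 158 cells a point, in the control siRNA library (blue) and the Chd4 siRNA library (orange). Bars are 95% Poisson intervals of the summed UMIs (counting error only); Chd4 is lower in the Chd4 siRNA library in every bin; the S phase sums are higher in the Chd4 siRNA library in bin 5 (5027 and 5769 CPM) and lower in bin 4 (4656 and 4401 CPM).

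Within the set the cells with the highest scores had the lowest S phase sums. Over 3 bins of rising score in the control set these genes summed to 5807, 5266 and 4238 CPM, while spindle genes summed to 1440, 1769 and 2743 CPM. In the Chd4 siRNA set the S phase sums were 5908, 6340 and 4979 CPM and the spindle sums 1423, 1756 and 2752 CPM. The highest bin had the lowest S phase sum in both libraries, but the order of the other 2 bins was not the same. The libraries were close in the lowest bin and apart in the middle and top ones.

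Chd4, the siRNA target, was lower in the set as in the other germ cells. It had 513 CPM (1500 UMIs) in the control set and 239 CPM (706 UMIs) in the Chd4 siRNA set, a log2 ratio of -1.1 (-1.23 to -0.97). The other germ cells had 543 and 258 CPM, a log2 ratio of -1.07 (-1.14 to -1.0). The difference between these ratios was -0.03 (-0.17 to 0.12), so a knockdown of unlike depth in the set was not detectable at this count. Across the bins of the score Chd4 ran from 500.4 CPM in bin 1 to 594.5 CPM in bin 3 of the control library and from 210.8 CPM in bin 1 to 311.3 CPM in bin 3 of the Chd4 siRNA library, and was lower again in bin 5. The gene lies at chr6:125095981-125130591 (plus strand, GRCm38). Of the 13 NuRD genes measured, Chd4 and Chd3, the gene of the alternative ATPase, were past 1.5-fold lower in the Chd4 siRNA set, beside 4.78% of all genes with at least 20 UMIs. Chd3 had 58.2 and 38.3 CPM (-0.60, -0.96 to -0.25), and in the other germ cells -0.33 (-0.50 to -0.15).

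Few genes differed between the libraries within the set. Of 4231 genes with at least 200 UMIs there, 13 (0.307%) were at least 1.5-fold higher and 62 (1.47%) at least 1.5-fold lower in the Chd4 siRNA set. With TMM factors the counts were 6 and 81, with DESeq2 size factors 6 and 80, without ribosomal protein genes in the totals 6 and 77, and with the mean of single-cell CPM 37 and 65. In the other germ cells 5 (0.118%) and 62 (1.47%) of the same genes passed. Of the 62 lower genes of the set 47 passed there as well, and of the 13 higher genes 1 did. With 1 library a group these are differences between 2 libraries, and a handling difference and the siRNA cannot be told apart. Of the 62, 20 are predicted genes or pseudogenes, whose reads may be shared with a near-identical gene.

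Besides Chd4, the genes lowest in the Chd4 siRNA set included several transcription factors. Prrx2, a homeobox gene, had 166 UMIs in the control set and 59 in the Chd4 siRNA set (log2 ratio -1.5, -1.96 to -1.07), and in the other germ cells -0.81 (-1.06 to -0.56). Yrdc, which makes a tRNA modification, had 77.3 and 30.2 CPM (-1.36), and -1.5 in the other germ cells. Jund (-1.28) and Klf2 (-1.28) are transcription factors in the immediate early and dissociation list, and their ratios in the other germ cells were -0.95 and -1.02. The list of immediate early and dissociation genes went the other way as a sum, with 0.12 (0.08 to 0.15) in the set and 0.17 (0.15 to 0.20) in the other germ cells. Its median was -0.03 in the set and 0.13 in the other germ cells, beside 0.06 and 0.05 for all genes. Ythdc1, a nuclear reader of methylated adenosine in RNA, had -1.09 and -0.79. Usp50, Hist1h2ap, Chic2 and Rps28 completed the 10 lowest, between -1.11 and -0.73, and each of the 10 was also lower in the other germ cells.

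The genes highest in the Chd4 siRNA set had smaller differences. Nek2, a kinase that separates centrosomes before mitosis, had 33.9 CPM in the control set and 53.9 CPM in the Chd4 siRNA set (0.67, 0.30 to 1.05), and 0.21 (-0.13 to 0.56) in the other germ cells. Crabp1, a retinoic acid binding protein, had 34.6 and 58.7 CPM (0.76, 0.40 to 1.13), and 0.55 in the other germ cells. Chchd10, a mitochondrial protein, had 161 and 246 CPM (0.61, 0.44 to 0.78). Lmbr1l, Fxyd6 and Snap47 had between 0.61 and 0.77. Ei24, Arpc1b, Reep5 and Rer1, also among the 10 highest by their intervals, had 0.57, 0.52, 0.51 and 0.46 and were not past 1.5-fold.

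Of the 21 lists, the S phase list had the widest gap between its summed siRNA ratio in the set and that in the other germ cells. By list medians the gap was wider for replication-dependent histones (-0.18 and -0.52) and feeder markers (0.22 and -0.06) than for S phase genes (0.21 and -0.02). The 50 S phase genes summed to 5027 CPM in the control set and 5769 CPM in the Chd4 siRNA set, a log2 ratio of 0.20 (0.17 to 0.23). In the other germ cells they summed to 3250 and 3224 CPM, -0.01 (-0.03 to 0.01), and the difference between the ratios was 0.21 (0.17 to 0.25). The value for the other germ cells pools bins of the score that went both ways, from 4656 and 4401 CPM in bin 4 to 2601 and 2762 CPM in bin 2. The ratio was higher in the set than in the other germ cells for 46 of the 50 genes, where it was for 51.8% of all genes with at least 200 UMIs in the set. Only 2 of the 50 were past 1.5-fold higher and 0 lower, beside 5.59% and 4.78% of genes with at least 20 UMIs, so the difference was small and spread over the list. The list's median was 0.21 in the set, beside 0.06 for all genes.

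The same list was then counted cell by cell, which describes the cells of these 2 libraries and not replicates of a condition. A germ cell was called high where its S phase UMIs were above the 80th percentile of all germ cells, 48.0 per 10000. In the set 68 of 150 control cells (45.3%, 37.2 to 53.7) and 94 of 148 Chd4 siRNA cells (63.5%, 55.2 to 71.3) were high, a difference of 18.2 percentage points. Among the other germ cells 12.4% and 10.5% were high, a difference of -1.96 points. The median in the set was 45.6 per 10000 (25.6 to 107.9) in the control and 54.8 (13.8 to 120.3) in the Chd4 siRNA library, with wide overlap. The 3 biological replicates cannot be separated within a pool, so whether each of them shows this shift is not known from these libraries.

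Clspn, a mediator of the replication checkpoint, had the clearest single difference of this kind. It had 115 CPM in the control set and 157 CPM in the Chd4 siRNA set (0.45, 0.24 to 0.66), and 57.7 and 47.1 CPM in the other germ cells (-0.29, -0.48 to -0.10), a difference of 0.74 (0.47 to 1.01). Ccne1, cyclin E1, which starts S phase, had 13.3 and 23.4 CPM in the sets (0.81, 0.22 to 1.42) and 11.3 and 9.06 CPM in the others. The cohesion factor Dscc1 had 14.4 and 25.1 CPM in the sets, the helicase subunit Mcm6 116 and 146 CPM, and the clamp loader subunit Rfc3 87.6 and 120 CPM. Pcna, the sliding clamp, had 144 and 151 CPM (0.07, -0.13 to 0.26), close to the median of all genes. Ccne2, Mcm10, Pola1, Prim1 and Uhrf1 were among the members below 0, with values between -0.20 and -0.003. H2afz had 1060 and 1300 CPM in the sets (0.29, 0.22 to 0.36) and 0.05 in the other germ cells.

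Spindle genes differed the opposite way as a sum, by less, while their median of -0.07 turned to 0.02 with the top 30% of cells as the set. They summed to 2051 CPM in the control set and 1958 CPM in the Chd4 siRNA set, a log2 ratio of -0.07 (-0.12 to -0.01), and in the other germ cells to a ratio of 0.06 (0.01 to 0.11). The ratio was higher in the set than in the other germ cells for 6 of 29 genes. The kinesin Kif14 had 26.0 and 15.9 CPM in the sets (-0.71, -1.26 to -0.16) and Tuba1c 55.8 and 32.9 CPM (-0.76, -1.14 to -0.39). They were the 2 of 29 members past 1.5-fold lower, beside 4.78% of all genes with at least 20 UMIs. Kif18b had 0.55 (0.03 to 1.09), in the other direction. For this list 82.7% (75.6 to 88.4) and 78.4% (70.9 to 84.7) of the set were above the 80th percentile. These intervals overlapped, and the difference was -4.29 points. The 45 G2/M genes outside the ranking were at the same level in both sets, with a log2 ratio of -0.01 (-0.04 to 0.02). Both sets were chosen by the same cut on a score that goes with this list, so this is a description and not a separate result.

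**Figure D5:**
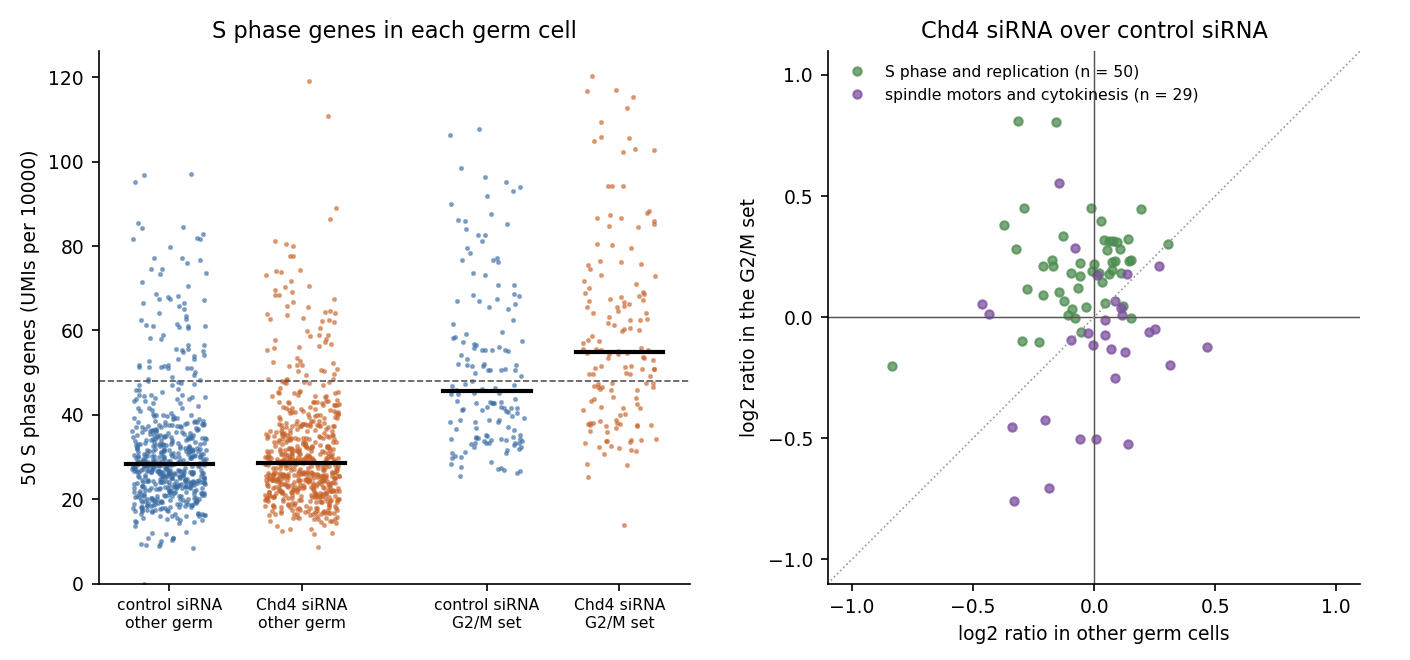
Left, UMIs of 50 S phase genes per 10000 in each germ cell (points; black bars are medians, the dashed line the 80th percentile of germ cells) by library and set: medians are 28.4 and 28.7 in other germ cells and 45.6 and 54.8 in the G2/M set. Right, log2 ratio of Chd4 siRNA over control siRNA for each gene of the S phase list (green) and the spindle list (purple), in other germ cells (horizontal) and in the G2/M set (vertical), with the line of equal ratios dotted; 46 of 50 green points and 6 of 29 purple points lie above it.

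The DNA damage checkpoint and repair list had 908 CPM in the control set and 990 CPM in the Chd4 siRNA set, a log2 ratio of 0.13 (0.05 to 0.20), and -0.02 (-0.07 to 0.04) in the other germ cells. It shares Clspn with the S phase list. Its median in the set was 0.10, beside 0.06 for all genes, with 11 of 19 members above that median of all genes and 8 below. Replication-dependent histone genes were lower in both kinds of cell, with summed ratios of -0.30 (-0.40 to -0.20) in the set and -0.41 (-0.50 to -0.32) in the other germ cells. Hist1h2ap took a large part of this, with 144 and 72.2 CPM in the sets. Of the p53 targets measured in the set 1 of 12 was past 1.5-fold higher, beside 5.59% of all genes with at least 20 UMIs. It was Phlda3, with 21.2 and 42.7 CPM (1.01, 0.56 to 1.47) and 0.04 (-0.25 to 0.33) in the other germ cells. Summed, the p53 list had a ratio of 0.23 (0.16 to 0.30) in the set and 0.15 (0.11 to 0.20) in the other germ cells, and the interval of the difference, -0.001 to 0.16, included 0. Its medians were 0.23 and 0.03, beside 0.06 and 0.05 for all genes. Cdkn1a, the CDK inhibitor among them, had 0.24 and -0.06.

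Genes with the widest gap between the set and the other germ cells, apart from Clspn, were Hirip3 (0.42 in the set and -0.35 in the others), H1f0 (0.54 and -0.08) and Pusl1 (0.30 and -0.36) at one end. H1f0 encodes a replacement linker histone and Hirip3 a histone chaperone. At the other end were Bend4 (-0.70 and 0.17), Tacc2 (-0.46 and 0.37), Igfbp5 (-0.29, -0.67 to 0.09, and 0.41) and Csrp2 (-0.35 and 0.21). Bend4 had 45.2 CPM in the control set and 27.8 CPM in the Chd4 siRNA set, against 31.5 and 35.4 CPM in the other germ cells. Nanos2, the RNA-binding protein that keeps stem cells undifferentiated, had 22.9 and 12.9 CPM in the sets (-0.83, -1.44 to -0.24, from 67 and 38 UMIs) and 26.7 and 24.5 CPM in the others. It was the 1 of 15 self-renewal genes past 1.5-fold lower in the set, near the 4.78% of all genes with at least 20 UMIs, and 0 were higher. Bcl6b (-0.01) and Etv5 (0.05) were at equal levels, and Lhx1 had -0.40.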

How the data were processed

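The deposited values are UMI counts, not normalized, made by the authors with 10x Genomics v2 chemistry, per the labels' protocols. The submitters' processing notes list Cell Ranger 2.1.0, Seurat and mm10 without their roles. The way cells were called was not given in the sources used here. As for rows, the gene lists as held name 26893 of 27998 rows, and the other 1105 rows (12.1% and 12.6% of UMIs) stayed out of totals and ratios, so genes in them were not analysed here. The last, incomplete cell of each matrix was left out.

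UMIs were summed over the cells of each set and library and divided by their total (CPM). Ratios have exact conditional binomial intervals, and shares exact binomial (Clopper-Pearson) intervals, at 95%. They cover counting error only. The interval of a difference between ratios uses Poisson errors of the 4 sums. Genes needed 200 UMIs and list members 20. Interval code was tested on simulated data. Tools were scanpy 1.11.5, scipy 1.17.1, edgeR 4.0.16 (TMM factors) and DESeq2 1.42.0 (size factors).

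Named genes were those with the interval bound nearest to 0 that lay farthest from it, 15 in each direction between sets, 10 between libraries and 4 for the difference of ratios, then up to 5 per list, with predicted genes replaced by the next, and others to show a list's range. Of the 15 lowest genes, 1 is not reported here. Phlda3, Nanos2 and members named within lists beyond those 5 were chosen after their values were seen. Members, lists and rules were chosen with earlier results of these data known. Promoters were matched by symbol: 7 of 8 ranking genes and 38 of 45 other G2/M genes had a window.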

Additional observations from a re-analysis of the deposited data

How the results depend on the processing

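With 1 pooled library a group, none of the differences between libraries has a replicate check. No paired analysis was possible because each group is 1 library. Alternatives for the summed S phase ratio, and a ranking on the 45 G2/M genes outside the rule, were chosen after seeing the data. The Chd4 log2 ratio in the set ran from -1.2 to -1.0, and the difference in share from -4.03 to 0.81 points.

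Counts of genes moved with the minimum and the fold. Genes higher and lower in the set were 570 and 624 at 50 UMIs, 218 and 122 at 500, 878 and 888 at 1 UMI in each sum, and 137 and 41 at 2-fold. With the top 30% of cells 177 were lower. Between libraries the counts were 238 and 204 at 50 UMIs, 1 and 28 at 500, 1536 and 1521 at 1 UMI, and 0 and 11 at 2-fold. Genes higher in the Chd4 siRNA set were 21 with the top 10% of cells, 6 with TMM factors, 6 with DESeq2 factors, 37 with the mean of single-cell CPM and 6 without ribosomal protein genes in the totals.

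The summed ratio of G2/M genes outside the rule was 1.41 in both libraries with the top 30%, 1.32 and 1.35 when ranked on Ccnb1, Ccnb2, Ube2c and Tpx2, 1.42 and 1.41 with TMM factors, and 1.38 and 1.36 without ribosomal protein genes. The S phase ratio between libraries was 0.25 with the top 10%, 0.14 with the top 30%, 0.16 with TMM factors, 0.16 with DESeq2 factors and 0.16 without ribosomal protein genes. The cause was not tested. Small values changed sign in places: the difference in share when cells were ranked on Top2a, Mki67, Cenpf and Nusap1, the difference between the Chd4 ratios (-0.16 to 0.09) and the S phase ratio in the other germ cells (-0.05 to 0.04). The median of the spindle list between libraries, -0.07, was 0.02 with the top 30%. Of 361 and 282 genes, 328 and 215 were called again when cells were ranked at 9000 UMIs.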
